A study of Mus musculus with 6 samples.

Results

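The genes described here encode proteins that neutrophils store in their granules or cytosol, 10 genes of the 20352 with a probe set of their own in the table: Ngp, Lcn2, Mmp8, Mmp9, Camp, Ltf, S100a8, S100a9, Lyz2 and Chil3. Chil3 carries its older symbol Chi3l3 in the array annotation. The genes were taken by name, and a probe set was used where the annotation gave it exactly 1 gene, which left 70 probe sets. The list was chosen by known function and with measured values of these arrays in view, namely the floxed minus control differences of Ngp, Mmp8, Lcn2, S100a8 and S100a9. Differences between the groups and the co-variation of the 10 genes are therefore given as a description. The 6 arrays hold RNA of bone marrow stem cells of the mouse, sorted by a gate that takes lineage-negative cells with c-Kit and Sca-1 and without CD34 on their surface. Of these, 3 came from controls, for which the labels give no allele, and 3 from mice with floxed beta-catenin alleles that carried Vav-Cre, called floxed here. The Vav promoter drives Cre in blood-forming cells and in part of the endothelium. Strain, age, and whether a sample was 1 animal or a pool are not given in the sources used here, so the spread between arrays may be technical.

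Neutrophils make their granules in sequence while they mature in the marrow. Primary granules are filled first, by promyelocytes, with myeloperoxidase and serine proteases. Secondary granules follow in myelocytes and hold lactoferrin (Ltf), lipocalin 2 (Lcn2), the cathelicidin antimicrobial peptide (Camp), neutrophilic granule protein (Ngp) and the collagenase Mmp8. The gelatinase Mmp9 marks the still later gelatinase granules, and S100a8 and S100a9 form calprotectin, the most abundant cytosolic protein of neutrophils. Lysozyme (Lyz2) and the chitinase-like lectin Chil3 are made by neutrophils and also by monocytes and macrophages. A lineage-negative gate is meant to leave mature granulocytes out, and stem cells are not known as a source of secondary granule proteins.

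The promoters of the 5 genes named above for the secondary granule are printed, as the genes that define it. RefSeq (GRCm38.p6) gave a promoter for 9 of the 10 genes, all but Mmp9. The 250 bases before the start of the gene are shown 5′ to 3′ on the strand of the gene. Capitals mark matches to TTNNGNAA on either strand, a loose form of the site of C/EBP factors, the family that includes the regulator of secondary granule genes C/EBP epsilon.
Ngp (chr9:110419558-110419807, plus strand): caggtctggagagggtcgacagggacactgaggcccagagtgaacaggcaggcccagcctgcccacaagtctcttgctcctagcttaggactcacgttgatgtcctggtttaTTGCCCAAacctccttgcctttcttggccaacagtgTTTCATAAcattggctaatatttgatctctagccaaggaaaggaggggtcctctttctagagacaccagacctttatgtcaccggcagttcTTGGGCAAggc
Ltf (chr9:111019042-111019291, plus strand): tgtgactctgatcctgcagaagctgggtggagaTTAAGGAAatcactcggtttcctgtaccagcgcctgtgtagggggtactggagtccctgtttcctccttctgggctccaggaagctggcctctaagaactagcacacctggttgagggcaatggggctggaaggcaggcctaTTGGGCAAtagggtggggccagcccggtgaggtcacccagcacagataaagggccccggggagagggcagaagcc
Lcn2 (chr2:32387740-32387989, minus strand): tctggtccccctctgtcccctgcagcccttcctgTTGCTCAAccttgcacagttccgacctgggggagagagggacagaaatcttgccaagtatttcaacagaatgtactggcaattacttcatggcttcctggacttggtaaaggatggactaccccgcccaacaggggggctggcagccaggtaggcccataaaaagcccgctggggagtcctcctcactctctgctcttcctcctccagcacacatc
Camp (chr9:109849457-109849706, minus strand): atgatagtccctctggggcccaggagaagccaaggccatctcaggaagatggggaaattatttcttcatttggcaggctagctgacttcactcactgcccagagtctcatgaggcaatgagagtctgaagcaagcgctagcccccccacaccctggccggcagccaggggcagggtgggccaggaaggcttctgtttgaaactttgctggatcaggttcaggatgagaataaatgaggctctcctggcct
Mmp8 (chr9:7558179-7558428, plus strand): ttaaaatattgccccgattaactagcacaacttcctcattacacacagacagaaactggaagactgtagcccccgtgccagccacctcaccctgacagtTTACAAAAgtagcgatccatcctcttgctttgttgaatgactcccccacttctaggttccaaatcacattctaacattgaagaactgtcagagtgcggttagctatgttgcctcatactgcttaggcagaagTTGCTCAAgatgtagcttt
Ngp had 3 such matches, Ltf and Mmp8 2 each, Lcn2 1 and Camp none. The pattern stood in 8 of the 9 granule gene windows and in 36.8% of all 32851 windows of the same length. It is a frequent short pattern, and a match is not a binding site. The ETS-type pattern GAGGAA, as bound by PU.1, stood in 4 of the 9 windows against 23.3% of all, the pattern AGATAA of GATA factors in 3 against 9.99%, and TATAAA in 1, that of S100a8, against 12.4%. The 4 patterns were searched on both strands, and no overlap between them was removed. Ngp, Camp and Ltf lie near each other on chromosome 9, with 8 protein-coding genes between Ngp and Camp and 20 between Ngp and Ltf in RefSeq order. S100a8 and S100a9 are direct neighbours on chromosome 3.

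Of 15 measured stem cell genes, 14 had a mean above the background level defined in the next paragraph. Kit had a mean log2 value of 11.78 over the 6 arrays, the stem cell transcription factor gene Hlf 11.64 and Ly6a, which encodes Sca-1, 11.28. Fgd5 (8.50), Esam (8.65) and Slamf1 (8.12), which encodes the stem cell surface protein CD150, were lower, and Hoxb5, a stem cell transcription factor gene, lay below that level at 5.96. Cd34 RNA stood at 12.66, although the gate takes cells without the surface protein. The floxed gene Ctnnb1 was lower on 5 of its 16 tested probe sets in every floxed array, by log2 differences of −6.90 to −2.51 (limma with Benjamini-Hochberg adjustment). Control replicate 3 stood apart, with correlations across genes of 0.880 to 0.934 with the other arrays, against up to 0.972 between floxed arrays. Array medians lay between 7.56 and 7.65; precision is limited by the number of arrays.

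On average over the arrays, granule genes gave signal above background. The value of a gene is the median over its probe sets whose mean reached the table's median of 7.60, and all 10 genes kept at least 2 of their probe sets, 48 of 70 in all. There are no detection calls, so 982 olfactory receptor genes, silent in blood cells, served as a scale for probe sets with little or no transcript. Their median was 4.77 and their 95th percentile 6.31 (log2 signal, no filter). Without the filter on dim probe sets, all 10 granule genes had a 6-array mean above that percentile, and 9 of the 10 exceeded it on each of the 6 arrays. Mmp8 did not, with 6.26 on control replicate 3 and 6.23 on floxed replicate 2 by the median of all its probe sets. The Mmp8 values given below rest on the 3 of its 11 probe sets that passed the filter. On every array the median of these 3 was the value of the same single probe set. Ngp and Lyz2 lay at the 98.4th percentile of all genes, Lcn2 at the 97.3rd, S100a9 at the 94.6th and S100a8 at the 93.6th. Ltf stood at the 88.9th and Camp at the 76.0th. Mmp9 (56.3rd), Chil3 (53.0th) and Mmp8 (43.4th) were in the middle of the table, since many of their probe sets were dim. Percentiles compare probe sets of different affinity and do not rank the transcripts by abundance.

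**Figure D1:**
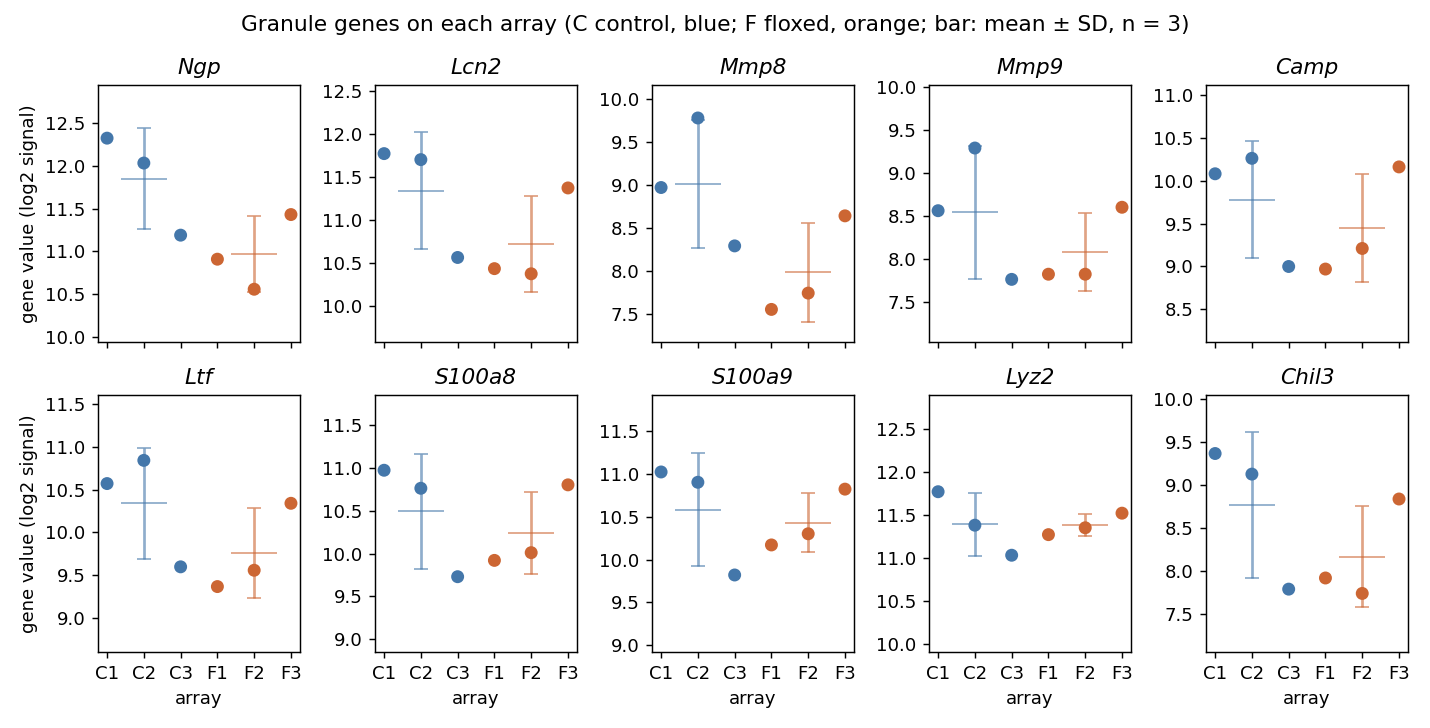
Gene values (log2 signal, median of kept probe sets) of the 10 granule genes on the 6 arrays, C1 to C3 control and F1 to F3 floxed, with the mean ± SD of each group (n = 3); every panel spans 3 log2 units. In each panel C1, C2 and F3 are the 3 highest arrays.

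The granule genes divided the arrays in the same way whatever the group. Control replicates 1 and 2 and floxed replicate 3 were the 3 highest arrays for 10 of the 10 genes, an order that 9.95% of all 14586 genes tested had. Control replicate 3 and floxed replicates 1 and 2 were the 3 lowest. The order was noticed in these values and was not tested. In sorted samples of this kind, fewer granulocytes and less granule RNA per cell cannot be told apart.

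Among the genes of the secondary granule proper, Ngp had log2 values of 12.32, 12.03 and 11.19 on control replicates 1, 2 and 3, and 10.91, 10.56 and 11.43 on floxed replicates 1, 2 and 3. Floxed replicate 3 thus lay above control replicate 3, and the groups overlapped. Lcn2, a protein that binds bacterial siderophores, had 11.77, 11.70 and 10.56 on the controls and 10.43, 10.37 and 11.37 on the floxed arrays. Here too floxed replicate 3 lay above control replicate 3. Ltf, the iron-binding lactoferrin gene, had 10.57, 10.84 and 9.60 on the controls and 9.37, 9.56 and 10.34 on the floxed arrays. Camp had 10.08, 10.26 and 9.0 on the controls and 8.97, 9.21 and 10.16 on the floxed arrays. For Camp, floxed replicate 3 was higher than control replicate 1. Mmp8 had the widest range by kept probe sets, 2.23 log2 or 4.68-fold between the highest and the lowest array. Its values, those of a single probe set, were 8.97, 9.78 and 8.29 on the controls and 7.55, 7.74 and 8.64 on the floxed arrays. Without the filter its range was no longer the widest: Mmp8 ran from 6.23 to 7.63 and Ngp from 10.56 to 12.32.

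The remaining granule and cytosolic genes had the same high and low arrays. The gelatinase gene Mmp9 had 8.56, 9.29 and 7.76 on the controls and 7.82, 7.82 and 8.60 on the floxed arrays, with control replicate 3 the lowest. S100a8 had 10.97, 10.76 and 9.73 on the controls and 9.92, 10.01 and 10.80 on the floxed arrays. S100a9, its partner in calprotectin, had 11.02, 10.90 and 9.82 on the controls and 10.17, 10.30 and 10.82 on the floxed arrays. Both S100 genes had their lowest value on control replicate 3. Chil3 had 9.37, 9.13 and 7.79 on the controls and 7.92, 7.74 and 8.84 on the floxed arrays. Lyz2 varied least, with 11.77, 11.38 and 11.03 on the controls and 11.27, 11.35 and 11.52 on the floxed arrays. Its range was 0.74 log2, or 1.67-fold.

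The low arrays were not all alike. Control replicate 3 was the lowest array for 4 genes (Mmp9, S100a8, S100a9 and Lyz2), floxed replicate 1 for 3 (Mmp8, Camp and Ltf) and floxed replicate 2 for 3 (Ngp, Lcn2 and Chil3). Both floxed replicates 1 and 2 lay below control replicate 3 for 4 genes, Ngp, Lcn2, Mmp8 and Ltf. The highest array was control replicate 1 for 6 genes and control replicate 2 for the other 4. Floxed replicate 3 exceeded control replicate 3 for 10 of 10 genes. Summed on the linear scale, the signal of the 10 genes was 20355, 18938 and 9725 on the controls and 9714, 9744 and 15637 on the floxed arrays, 2.10-fold between the highest and the lowest array.

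The spread of these genes was wide for this table. The SD of a gene over the 6 arrays had a median of 0.61 log2 for the granule genes and 0.20 for all genes tested. It exceeded the 95th percentile of all genes, 0.43, for 9 of the 10, with Lyz2 at 0.25. Control SDs ran from 0.37 to 0.85 and floxed SDs from 0.13 to 0.63. The SD was larger in controls for 10 of the 10 genes. Some genes outside the list had this too, as Mpo with 0.24 against 0.14 and Cd79a with 1.84 against 0.54. Padi4 had the reverse, 0.15 against 0.33. The share of all genes with a larger SD in controls was not computed.

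Single probe sets showed the same order. Of the 70 probe sets, 61 had control replicates 1 and 2 and floxed replicate 3 as their 3 highest arrays, against 7.42% of all probe sets with 1 gene. Of the 48 kept ones 46 did, against 9.17% of all kept probe sets. All probe sets of Ngp (5), Lcn2 (6), Camp (4), Lyz2 (3), Chil3 (5), S100a8 (2) and S100a9 (2) had it. The 9 exceptions belonged to Mmp9 (5), Mmp8 (3) and Ltf (1), and 7 of them were too dim to be kept. The 2 kept exceptions were both of Mmp9, and 1 of these had control replicate 3 as its highest array, at 8.78. Of the 22 dim granule probe sets, 15 had the order, and its share among all dim probe sets was not computed. Of the 70, 5 had a mean at or below the 95th percentile of olfactory receptor genes.

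**Figure D2:**
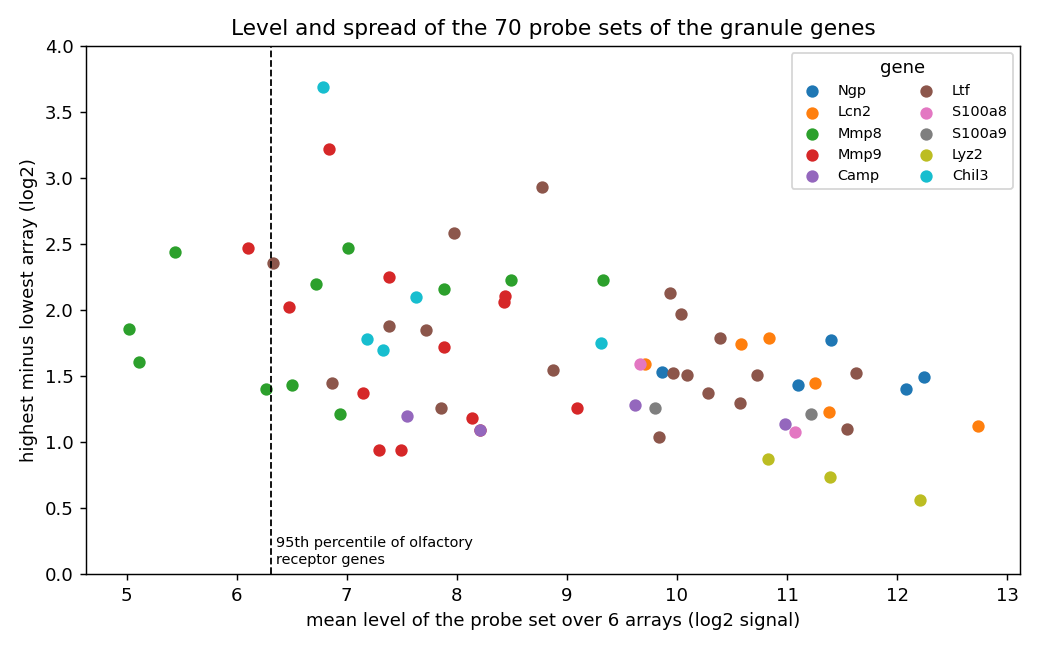
Mean level over 6 arrays (x, log2 signal) against the gap between the highest and the lowest array (y, log2) for the 70 probe sets, coloured by gene; the dashed line is the 95th percentile of olfactory receptor genes, 6.31. Lyz2 (0.56 to 0.87) lies lowest at high signal, and dim probe sets of Mmp8, Mmp9 and Chil3 reach gaps above 2.

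Pairs of granule genes varied together over the 6 arrays. The Pearson correlation of the 45 pairs had a median of 0.89 and ran from 0.39 to 0.99, and the rank correlation (Spearman) had a median of 0.77. Over all 106368405 pairs of tested genes the median Pearson r was 0.04. Of the granule pairs, 33 (73.3%) had an r of at least 0.8, as did 5.58% of all pairs. These correlations are descriptive, over 6 arrays that fall into a high and a low set, and all values of an array share its hybridisation and normalization. With the group means removed, so that no difference between controls and floxed arrays enters, the median r of the granule pairs was 0.93. Of these, 39 of 45 (86.7%) reached 0.8. Over all pairs of tested genes, the median was then 0.04 and 8.84% reached 0.8, more than the 5.58% before. When each array was left out in turn, the median r of the pairs was 0.89 to 0.93, and 0.92 without control replicate 3.

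Likeness to the other granule genes differed between members. The r of a gene with the mean of the other 9 was 0.99 for Lcn2 and Ltf, 0.98 for Chil3 and 0.96 for Camp. It was 0.95 for S100a8, 0.92 for S100a9 and Mmp9, 0.89 for Ngp and 0.88 for Mmp8, and lowest for Lyz2 at 0.70. The Lyz2 value was that of a single probe set on every array. The other kept Lyz2 probe sets had r of 0.94 and 0.95. The pairs with the lowest r were Mmp8 with Lyz2 (0.39) and Mmp9 with Lyz2 (0.52). The neighbouring genes S100a8 and S100a9 had an r of 0.98. On chromosome 9, Ngp and Camp had 0.79, Ngp and Ltf 0.89 and Camp and Ltf 0.97. Lcn2 and Chil3, on different chromosomes, had 0.99.

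**Figure D3:**
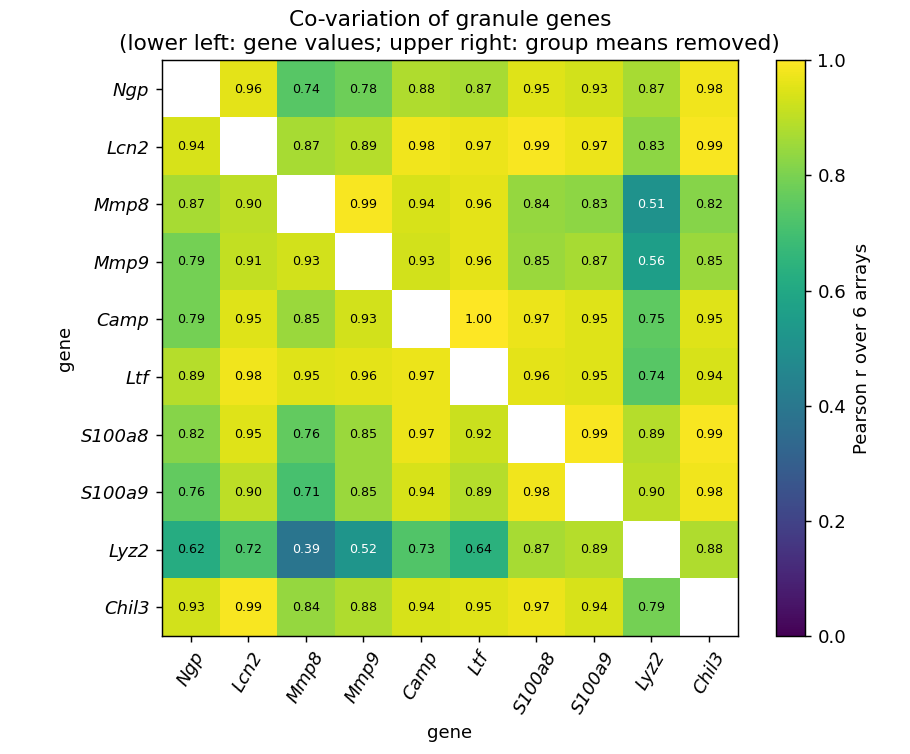
Pearson r over the 6 arrays for each of the 45 pairs of granule genes, from gene values (lower left) and with group means removed (upper right). Values run from 0.39 to 0.99 in the lower left, and the lowest stand in the row of Lyz2.

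The 2 groups were then set side by side. The log2 difference, floxed minus control, was −0.88 (SE 0.28) for Ngp, −1.03 (SE 0.36) for Mmp8, −0.62 (SE 0.33) for Lcn2 and −0.60 (SE 0.39) for Chil3. It was −0.58 (SE 0.32) for Ltf, −0.46 (SE 0.35) for Mmp9 and −0.33 (SE 0.35) for Camp. S100a8 had −0.24 (SE 0.31), S100a9 −0.15 (SE 0.29) and Lyz2 −0.01 (SE 0.17). Single Lyz2 probe sets had −0.01, −0.12 and −0.32. All 10 differences were negative, as were 45.8% of those of all genes, and their median was −0.52 against 0.02 for all genes. This was the contrast in view when the genes were chosen, so nothing is read from that count. For 8 of the 10 genes the difference was smaller than the SD of the controls, the exceptions being Ngp and Mmp8, and the groups overlapped for 10 of 10. Among all genes, 2.87% had every floxed array below every control. In limma with adjustment over all 14586 genes, 0 of the 10 granule genes and 0.0% of all genes passed the threshold of 0.05 (adjusted p = 0.999 for each granule gene). The floxed gene Ctnnb1 did not pass this gene fit either, with a difference of −0.88 (limma, unadjusted p = 5.07e-05, adjusted p = 0.667). A granule gene that did not pass is therefore not shown to be unchanged. At an unadjusted p under 0.05 stood 2 of the granule genes, Ngp and Mmp8, on a side that 1.28% of all genes took. The size of several differences depended on which probe sets were used and how they were summarised. Single Ngp probe sets had −0.90 to −0.43. The 3 kept Mmp8 probe sets had −1.03, −0.90 and −0.63, and the 2 kept ones of Chil3 −0.27 and −0.93. The mean of kept probe sets gave −0.62 (SE 0.29) for Ngp and −0.86 for Mmp8. Without the filter Ngp stayed at −0.88, and Mmp8 had −0.42 (SE 0.33). Ltf then had −0.34, Mmp9 −0.21 and Chil3 −0.53. Camp moved the other way, to −0.37, and Lcn2, S100a8, S100a9 and Lyz2 kept their values. On the level of probe sets, 0 of the 48 kept granule probe sets passed, and 0.00453% of all did, each of them of Ctnnb1.

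The size of the difference depended on single arrays. The median over the 10 genes became −0.29 when control replicate 1 was left out, −0.10 for control replicate 2, −0.90 for control replicate 3 and −0.29 for floxed replicate 1. Without control replicate 1 the differences of S100a9 (0.07), Lyz2 (0.18) and Chil3 (0.004) were on the other side, and without control replicate 2 those of S100a9 (0.01) and Chil3 (0.03). Lyz2 was also at 0.04 without floxed replicate 1 and at 0.001 without floxed replicate 2. With array weights, which gave control replicate 2 a weight of 3.37 and control replicates 1 and 3 weights of 0.27 and 0.402, the median was −0.94. Under those weights limma called 5 of the 10 lower, with adjusted p = 0.0262 for Ngp, 0.0260 for Mmp8, 0.0420 for Ltf, 0.0467 for Mmp9 and 0.0495 for Lcn2. The weights called 404 genes (2.77%), of which 121 (0.83% of those tested) were lower.

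Other late neutrophil genes followed the same arrays in part. Of 26 listed genes 25 were measured and 18 kept after the filter, and their mean deviation from the 6-array mean was 0.24, 0.25 and −0.27 log2 on the controls and −0.15, −0.16 and 0.08 on the floxed arrays. The corresponding values of the granule genes were 0.58, 0.64 and −0.49, and −0.53, −0.50 and 0.29. The mean profiles of the lists had an r of 0.98 over the 6 arrays, and 0.97 to 0.99 when an array was left out. Ly6g, the antigen by which granulocytes are sorted, had 8.54, 8.51 and 7.35 on the controls and 7.22, 7.51 and 8.08 on the floxed arrays, from its 1 kept probe set. Cd177, a neutrophil surface protein, had 8.87, 9.31 and 7.79 on the controls and 7.79, 8.08 and 8.85 on the floxed arrays. Hp, which encodes haptoglobin, an iron-saving protein of specific granules, had 8.35, 8.63 and 7.25 on the controls and 7.44, 7.61 and 8.27 on the floxed arrays. All 3 had control replicates 1 and 2 and floxed replicate 3 as their highest arrays, as had 8 of the 18 kept genes.

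Not every neutrophil gene did so. Csf3r, the receptor of G-CSF, which progenitors also carry, was bright but had an r of −0.19 with the granule profile, and Itgam, the integrin chain CD11b, had 0.41. Retnlg had 0.45, Padi4 −0.61 and Trem1, an activating receptor, −0.06 with a difference of −0.41. Pglyrp1, a peptidoglycan-binding granule protein, had 0.74, and Wfdc21 had 0.94 from its 1 kept probe set. The median r of the 18 genes was 0.59. The formyl peptide receptor genes Fpr1 and Fpr2 and the stefin gene Stfa2l1 lay below the 95th percentile of olfactory receptor genes. So did Trem1 (6.29) and Clec4d (5.57) over all their probe sets, although each was kept through its 1 brightest. Cxcr2, the chemokine receptor of mature neutrophils, was removed by the filter with a mean of 7.15. In floxed arrays 13 of the 18 kept genes had a lower mean and 5 a higher one; the median difference was −0.18, and 0 passed in limma (the smallest adjusted p was 0.999).

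Primary granule genes followed the granule profile less closely. Over all probe sets their means ran from 7.24 for Prss57 to 11.64 for Mpo. Of 15 listed genes 14 were measured, all but Elane. Mpo, which encodes myeloperoxidase, had 11.99, 11.90 and 11.53 on the controls and 11.97, 11.70 and 11.88 on the floxed arrays, a range of 0.46 log2 and an r of 0.56. The list of 14 genes had a mean deviation of 0.21, 0.05 and −0.38 on the controls and 0.02, −0.03 and 0.13 on the floxed arrays (r = 0.66 with the granule profile). Ctsg, the cathepsin G gene, was lowest on control replicate 3 at 8.75, but floxed replicates 1 and 2 (9.90 and 9.79) stood with the other arrays. Fcnb, the ficolin gene of neutrophil precursors, had an r of 0.84, Ctsg 0.47 and Plac8, with a mean of 11.55, −0.13. The median r of the list was 0.50. The difference between the r of the lists was not tested. In floxed arrays 10 of the 14 had a higher mean and 4 a lower one; the median difference was 0.10 and 0 were called.

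Among the 10 kept transcription factors of the lineage, Cebpe had the highest r. Its product, C/EBP epsilon, is required for secondary granules. From its 1 kept probe set of 3, Cebpe had 9.65, 9.55 and 9.04 on the controls and 9.03, 9.21 and 9.42 on the floxed arrays, an r of 0.96 with the granule profile, with control replicates 1 and 2 and floxed replicate 3 highest. Over all 3 probe sets its mean was 7.30, against 9.32 for the kept one. Ets1, a factor of lymphoid cells, had an r of 0.89. Spi1, which encodes PU.1, had an r of 0.46, Gfi1 0.06 and Runx1 −0.24, and these also act in stem cells. The median r of the list was 0.35, and 7 genes had a higher and 3 a lower floxed mean (median difference 0.04, 0 called).

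**Figure D4:**
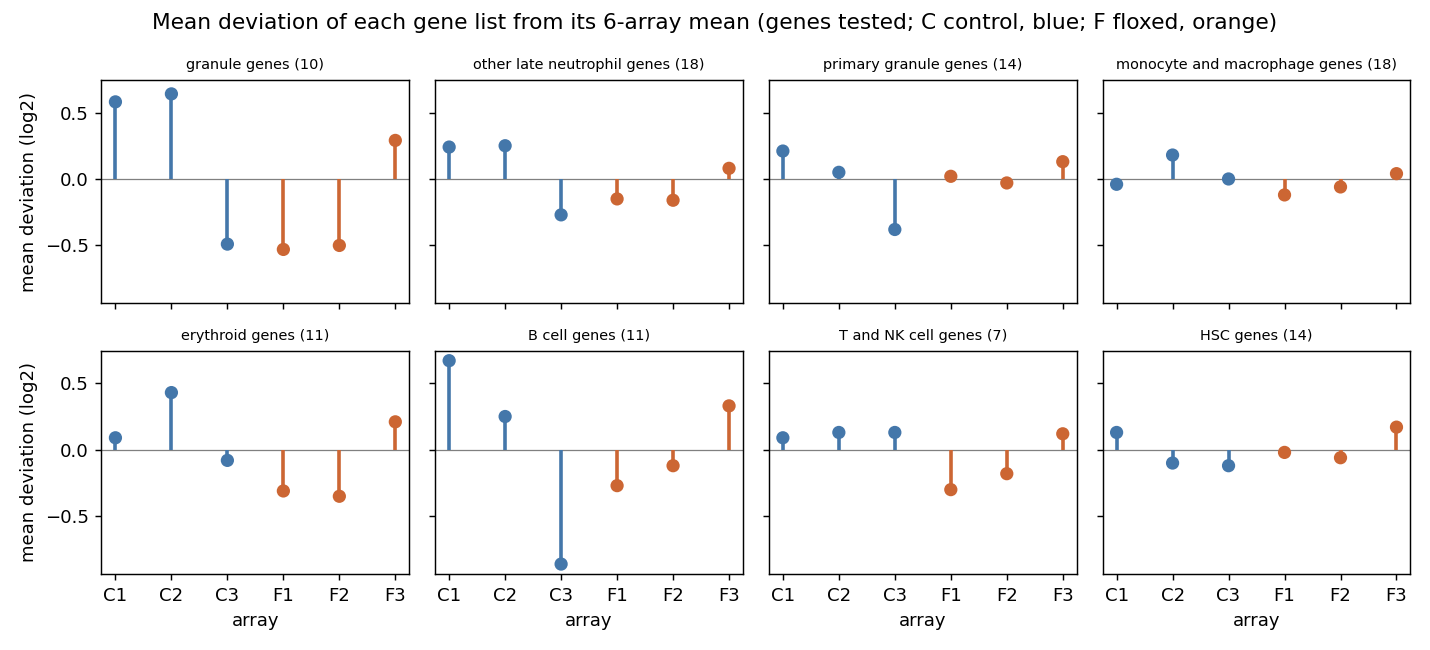
Mean deviation (log2) of the tested genes of 8 lists from each gene's 6-array mean, by array (C control, F floxed; number of genes in parentheses). Granule genes run from −0.53 to 0.64, other late neutrophil genes have the same signs at smaller size, and stem cell (HSC) genes stay between −0.12 and 0.17.

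Genes of other blood lineages shared part of the pattern. The 11 erythroid genes had mean deviations of 0.09, 0.43 and −0.08 on the controls and −0.31, −0.35 and 0.21 on the floxed arrays (r = 0.89 with the granule profile). Gata1, the erythroid and megakaryocyte regulator, had an r of 0.93, and Slc4a1, which encodes the red cell anion exchanger, 0.90, the highest of the list. The brightest, the carbonic anhydrase genes Car1 and Car2, had 0.72 and 0.69, the transferrin receptor gene Tfrc 0.37, and the list median was 0.76. The floxed mean was lower for 11 of the 11 (median difference −0.31, 0 called). Epor, the erythropoietin receptor gene, had a difference of −0.48 (r = 0.76) and Epb42, which encodes a protein of the red cell membrane skeleton, −0.57 (r = 0.68). The 11 kept B cell genes had 0.67, 0.25 and −0.86 on the controls and −0.27, −0.12 and 0.33 on the floxed arrays (r = 0.83). Here control replicate 1 was highest and control replicate 3 lowest by a wide margin. Cd79a, the signalling chain of the B cell receptor, had 10.70, 9.37 and 7.06 on the controls and 8.99, 8.85 and 9.84 on the floxed arrays. Rag1, the recombinase of lymphocyte precursors, had the highest r of the list at 0.92. Cd79b and Cd74 had 0.83 each and the surrogate light chain genes Igll1 and Vpreb1 0.88 and 0.07. Pax5, the B cell regulator, had 0.61 and the kinase gene Blk 0.24, and the list median was 0.80. Floxed means were higher for 4 and lower for 7 of the 11 (median −0.07, 0 called), with −0.19 for Igll1 and −0.14 for Vpreb1.

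Monocyte and macrophage genes (18 kept) had smaller deviations, from −0.12 to 0.18, with an r of 0.68, and Ccr2, the brightest with Ms4a6c, had −0.10 by itself. The summed linear signal of the monocyte list was 7450 to 8434 in controls and 7458 to 7971 in floxed arrays. Cd14 and Fcgr1 were below the 95th percentile of olfactory receptor genes, as were Adgre1, which encodes a macrophage surface antigen (5.99), and Marco (6.24) over all their probe sets. Ms4a6c had an r of 0.17. Ly6c2, the monocyte antigen gene, had 0.59 and a floxed minus control difference of −0.69, and C1qc, a complement gene of macrophages, 0.10 and −0.39, each from 1 kept probe set. Of the 18 genes 7 had a higher and 11 a lower floxed mean (median −0.04). The 7 kept T and NK cell genes had an r of 0.66, and the floxed mean was lower for 7 of 7 (median −0.17). Among them Cd4 had a difference of −0.63 (r = 0.75), the perforin gene Prf1 −0.43 (r = 0.28) and Il7r −0.11 (r = 0.54). Eosinophil, basophil and mast cell genes had 0.42, with 0.96 for Cpa3, the mast cell carboxypeptidase, 0.73 for Gata2, 0.35 for Ear2 and −0.09 for Prg2, and 3 of 7 were higher in floxed arrays. Megakaryocyte and platelet genes had 0.72, with 0.51 for Gp9 and −0.61 for Itga2b, which encodes the integrin chain CD41, and 7 of 9 were lower (median −0.03). Stroma and endothelium genes had 0.01, with 0.50 for Emcn, 0.19 for Runx2 and 0.16 for Cldn5, and 8 of 10 were lower (median −0.03). No gene of these lists was called in limma. The 14 kept stem cell genes had deviations of −0.12 to 0.17, with 9 higher and 5 lower in floxed arrays (median 0.04). Slamf1 had a difference of 0.23 (r = 0.34) and Ctnnal1 0.31 (r = 0.06), while Kit had an r of 0.65 and Hlf 0.37. The mean of the list had an r of 0.45 with the granule profile, which moved to 0.90 without control replicate 2 and 0.26 without control replicate 1. What part RNA of other cells had in the granule values was not tested.

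In counts of single genes, an r of at least 0.8 with the mean granule profile was reached by 7 of 18 late neutrophil genes, 5 of 11 erythroid genes and 5 of 11 B cell genes. It was reached by 2 of 14 primary granule genes, 1 of 18 monocyte and macrophage genes and 0 of 14 stem cell genes. Of all 14586 genes, 5.90% reached it. Control replicates 1 and 2 and floxed replicate 3 were highest for 8 of 18 late neutrophil and 8 of 11 B cell genes. They were so for 6 of 11 erythroid, 5 of 14 primary granule, 3 of 18 monocyte and macrophage and 1 of 14 stem cell genes. The share among all genes was 9.95%.

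**Figure D5:**
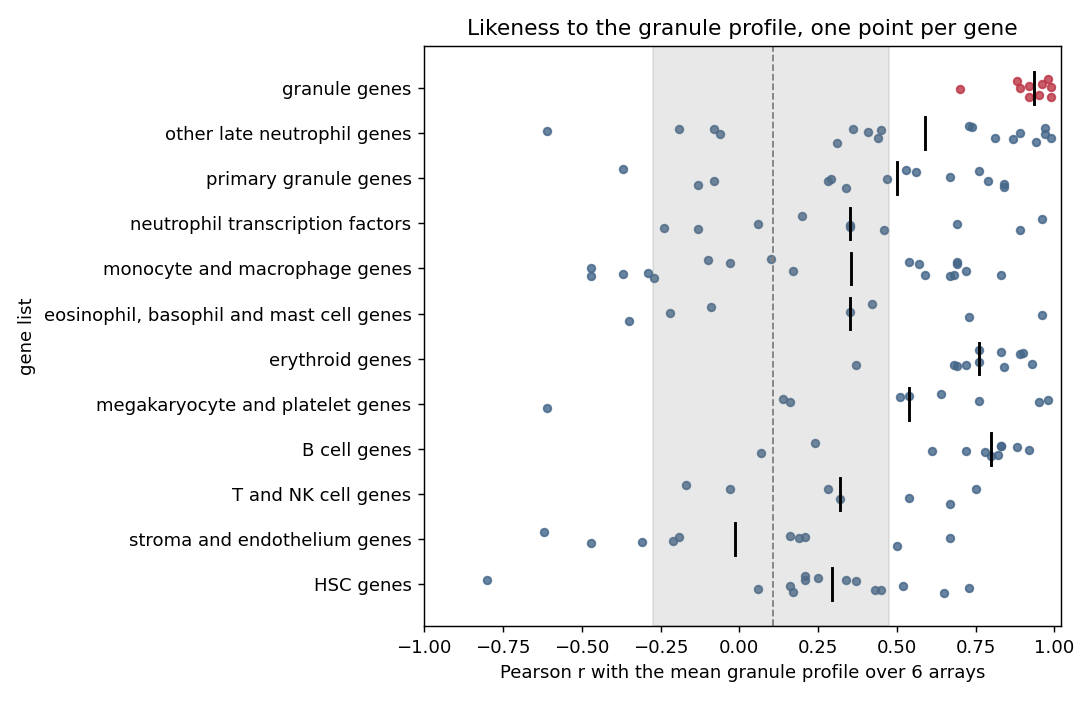
Pearson r over the 6 arrays of each tested gene with the mean granule profile, by gene list; granule genes (red) are set against the mean of the other 9. Black ticks are list medians, the grey band the middle of all genes (−0.27 to 0.47 between the 25th and the 75th percentile) and the dashed line their median, 0.11.

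The 10 genes outside the list with the profile most like it, among 2818 with an SD of at least 0.3 log2, were Ceacam1, Sdc1, Blvrb, Fcer1g, Ly6g, Alox5, Epb41l5, AB124611, Cemip and Samd14, with r from 0.97 to 0.99. Ceacam1, an adhesion molecule of granulocytes and epithelia, had 10.50, 10.43 and 9.35 on the controls and 9.19, 9.39 and 10.11 on the floxed arrays. Fcer1g, the signalling chain of Fc receptors, had 10.16, 10.08 and 9.31 on the controls and 9.30, 9.43 and 9.86 on the floxed arrays. Alox5, the lipoxygenase that starts leukotriene synthesis, had 8.50, 8.75 and 7.76 on the controls and 7.88, 7.87 and 8.48 on the floxed arrays. Blvrb, a biliverdin reductase abundant in red cells, had 10.54, 10.51 and 9.94 on the controls and 9.84, 9.98 and 10.37 on the floxed arrays. Sdc1, the plasma cell proteoglycan syndecan 1, ran from 8.20 to 8.86. Of the 2818 genes 46 (1.63%) had an r of at least 0.9.

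Relatives of Lyz2, Chil3 and the matrix metalloproteinases were looked at, since probe sets of paralogs can share signal. Lyz1, another lysozyme gene, ran from 10.47 to 10.99 on its 1 kept probe set of 3, with an r of 0.84 with the granule profile, but −0.02 over all 3. Shared signal between it and Lyz2 was not tested. Chil4, the closest relative of Chil3, had a mean of 4.36, near the median of olfactory receptor genes, and an r of 0.18. Chil1, another chitinase-like gene, had 8.85, 8.83 and 8.25 on the controls and 7.81, 7.88 and 8.67 on the floxed arrays, with an r of 0.95. Mmp10, the stromelysin 2 gene, had 7.89, 8.35 and 9.04 on the controls and 8.22, 8.37 and 8.0 on the floxed arrays. It was highest on control replicate 3 and had an r of −0.56, or −0.73 over all its probe sets. These relatives were chosen after the data were seen.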

How the data were processed

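Total RNA of sorted cells was made into biotinylated cRNA and hybridised to arrays, per the labels' protocols. The deposited values are log2 expression of 241576 probe sets, from 2.44 to 14.53, the base being inferred from that range. MAS5 is named in the submitters' processing notes, with no role; how values were normalized is not given in the sources used here, and no normalization was added. Of the probe sets, 212097 had 1 gene in the platform annotation; symbols were updated through RefSeq (2742 of 20416).

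Probe sets with a 6-array mean of at least the median (7.60) were kept, and the median per gene gave 14586 genes. These were fitted with limma 3.58.1 in R 4.3.3 (eBayes with trend, two-sided, Benjamini-Hochberg, threshold 0.05). On values simulated for this comparison and 14586 genes, 88.6% of changes of 1 log2 and 100% of 2 and of 4 were recovered, with 6.76% false calls. The simulation changed 200 genes and drew the noise of each gene on its own, without variation shared by the genes of an array. It therefore does not tell what change in the granule genes, which spread widely and together, would have been called.

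The members and lists were chosen with earlier results of these data known. Named were all members, the 10 genes of highest r with their profile, and per list the 2 of highest mean and the 2 of smallest p; other list genes were picked with their values known. Alternatives covered normalization, filter, summary, variance model, array weights, replicate number and each array left out.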

Additional observations from a re-analysis of the deposited data

How the results depend on the processing

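Over 15 alternatives, 141 of 149 recomputed differences of single granule genes kept their direction. The reversed ones were S100a9 (0.0723), Lyz2 (0.177) and Chil3 (0.00434) without control replicate 1, S100a9 (0.0108) and Chil3 (0.0324) without control replicate 2, and Lyz2 with array weights (0.00209) and without floxed replicates 1 (0.0433) and 2 (0.00143); the cause was not tested. Leaving out 1 array gave −0.531 to 0.0723 for S100a9, −0.194 to 0.177 for Lyz2 and −1.08 to 0.0324 for Chil3. The median difference of the 10 genes was −0.519 with all arrays, −0.897 to −0.0981 when 1 array was left out, −0.550 with quantile normalization, −0.356 with no filter, −0.287 with the filter at the 75th percentile, which left 9 of the 10, and −0.942 with array weights.

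Granule genes called in limma numbered 0 in all 15 alternatives except array weights, where 5 were called. Genes called numbered 0 (540 at an unadjusted p under 0.05), 2 with no filter, 1 with the mean of probe sets, 404 with array weights and 0 to 2 when 1 array was left out. Probe sets called numbered 5, 6 with no filter, 0 with the filter at the 75th percentile and 4 or 5 when 1 array was left out. As a mean, the granule profile differed by −0.49 between the groups, by −0.455 as a median and by −0.651 over the 6 neutrophil genes. With the replicate number as a replicate block, 0 genes and 5 probe sets passed, and the median was −0.519. Deviations of same-numbered arrays had correlations of 0.198, −0.00365 and −0.243. With so few arrays these cannot show whether arrays of the same number were handled together. Leaving out arrays for the pair correlations was chosen after the data were seen.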
